A study of Mus musculus with 9 samples.

Results

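The mRNAs described here encode enzymes that acetylate or methylate histones, the large proteins that work with them, and a corepressor. They were taken by symbol from the authors' gene table, in which 9 were sought (Crebbp, Ep300, Ep400, Trrap, Ncor1, Mll1, Mll2, Mll3 and Mll5) and all 9 were found among 30999 lines, 9192 of which held at least 1 FMRP tag. The Mll genes now carry the symbols Kmt2a (Mll1), Kmt2d (Mll2), Kmt2c (Mll3) and Kmt2e (Mll5). The study read RNA fragments, called tags, from 2 RNA-binding proteins of mouse brain polyribosomes: FMRP, whose loss causes fragile X syndrome, and the neuronal Hu proteins. It used HITS-CLIP, in which ultraviolet light joins a protein to the RNA it touches before the protein is precipitated.

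All 9 libraries came from FVB mice, from cortex and cerebellum dissected away from white matter, with brains of littermates pooled. FMRP was precipitated with the polyclonal antibody ab17722 from P11 and P13 lysates made in 2% SDS (Protocol 2) and read on Illumina. It was precipitated with the same antibody from P14 and P25 lysates made in 1% SDS (Protocol 1) and read on 454, and with the mixed monoclonal antibodies 7G1-1 and 2F5 from P14, P15 and P25 lysates of Protocol 1, also on 454. Hu proteins were precipitated with a human anti-Hu antiserum from the other portion of the P11 and P13 lysates, with Protocol 2 and Illumina. The labels name no genotype beyond the strain, and libraries of Fmr1-null mice were not analysed here. Each library was a pool at its own age, and p-values reflect only how these pools varied.

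Histone acetyltransferases and some histone methyltransferases write chemical marks on chromatin that are associated with active genes, and corepressors recruit enzymes that take acetyl marks away. Loss of function of several of these proteins in people causes disorders of brain development, among them Rubinstein-Taybi syndrome (CREBBP and EP300) and Kabuki syndrome (the human gene of Mll2). FMRP is known as a protein that binds mRNA on polyribosomes and represses translation, with much of its binding in coding sequence, whereas neuronal Hu proteins are known for binding U-rich elements, often in the untranslated region at the 3′ end.

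Libraries held 4397 to 7713 tags on transcripts with 454 and 25873 to 49847 with Illumina. A count of 0 allows up to 3 tags, which is 68.1 to 112 CPM (tags scaled to a common library total) for FMRP on Illumina and 60.2 to 116 CPM for Hu. Of 6 neuronal markers 5 had tags (945 in all; Syp had 0). Of other cell types, 5 of 5 oligodendrocyte markers (851 tags), 5 of 5 astrocyte markers (152), 2 of 4 microglial markers (16; Aif1 and Cx3cr1 at 0), 3 of 4 endothelial markers (6; Cldn5 at 0), both haemoglobin genes (9), 1 of 3 muscle markers (2; Myh6 and Ckm at 0) and neither liver marker had tags.

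In the authors' table, 4 of the 9 mRNAs stood among the first 130 lines. These were Mll2 at rank 63 with 150 FMRP tags over 7 libraries, Crebbp at rank 85 with 130, Trrap at rank 99 with 118 and Ncor1 at rank 129 with 100. The others were Mll1 at rank 366 with 48 tags, Ep300 at rank 416 with 58, Mll3 at rank 421 with 84, Ep400 at rank 444 with 58 and Mll5 at rank 583 with 51. Crebbp has a second line in that table, at rank 4779 with 3 tags, which covers a stretch just beyond the 3′ end of the first.

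The genes lie on 5 mouse chromosomes, in mm9 coordinates of the authors' table. Crebbp spans chr16:4084048-4213404, with its second line at chr16:4081328-4083997, and is read from the minus strand. Ep300 (chr15:81416644-81482507) and Trrap (chr5:145529661-145620642) are on the plus strand, and Ep400 (chr5:111093392-111199736) and Ncor1 (chr11:62130192-62270834) on the minus strand. Of the methyltransferase genes, Mll1 (chr9:44611438-44689357), Mll2 (chr15:98662100-98701631) and Mll3 (chr5:24777612-25004601) are on the minus strand and Mll5 (chr5:22938863-23010053) on the plus strand.

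The first question was how much of what each protein bound came from these mRNAs. Transcript tags were found for 8 of them, all but Mll5, for which the transcript lists hold no tag. Their summed share of all transcript tags was 0.922% in the P11 and 0.790% in the P13 FMRP Illumina library, between 0.432% and 0.842% in the 5 FMRP 454 libraries, and 0.0502% in the P11 and 0.0461% in the P13 Hu library. The ranges of FMRP and Hu did not overlap. The 95% Wilson intervals were 0.814% to 1.04% and 0.711% to 0.877% for the FMRP Illumina libraries at P11 and P13, and 0.0294% to 0.0860% and 0.0307% to 0.0692% for the Hu libraries. Wilson intervals here cover counting error only.

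**Figure D1:**
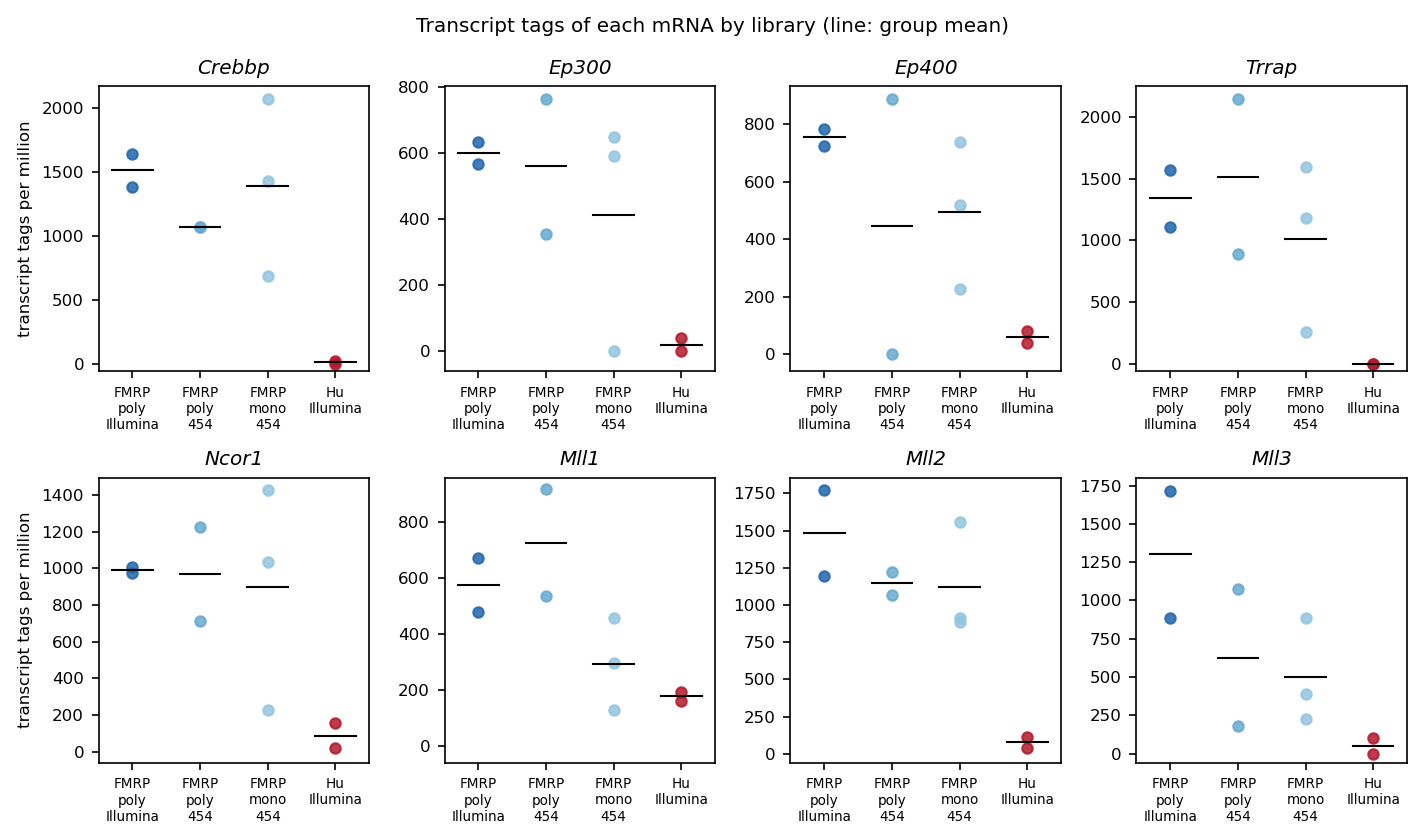
Transcript tags in CPM for 8 mRNAs, 1 point per library and a line at the mean of each group, with the FMRP groups left of Hu. Every FMRP Illumina point lies above both Hu points for each of the 8 mRNAs, as for 39.3% of all 1015 genes tested, and some 454 points lie at 0.

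FMRP and Hu were then compared gene by gene in the 4 Illumina libraries, which share lysates, protocol and platform. All 8 of the mRNAs that could be tested on transcript tags were higher in FMRP (edgeR's quasi-likelihood test, Benjamini-Hochberg adjusted over 1015 genes, threshold 0.05). Among all 1015 genes tested 340, or 33.5%, were higher in FMRP and 271, or 26.7%, were higher in Hu. The 8 mRNAs entered the test through their FMRP libraries alone. None had more than 8 tags in a Hu library, too few for the filter on low counts. Other genes could enter through either protein, so that all 8 were higher in FMRP follows in part from the filter. The median log2 of FMRP over Hu was 4.57 for the 8 mRNAs, with Trrap at its lower bound, against -0.16 for all genes. Scaling moved the whole distribution (a median of 0.21 with DESeq2 size factors and -0.38 with library totals), and all 8 passed under either. Tags were not adjusted for mRNA abundance, which bears on the tag level of a gene. In bulk tissue, fewer cells of a type and less RNA per cell cannot be told apart in such levels. The ratio of FMRP over Hu compares portions of the same lysates.

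The paralogous acetyltransferases came first. Crebbp, which encodes the CREB-binding protein, had 44 and 61 transcript tags in the P11 and P13 FMRP libraries, against 0 and 1 in the P11 and P13 Hu libraries. Its ratio of library-scaled totals was 137, with an exact 95% counting interval of 24.1 to 5475 (adjusted p = 0.00250, edgeR). Ep300, which encodes the closely related p300 protein, had 17 and 25 tags in FMRP and 0 and 2 in Hu.

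The ratio for Ep300 was 27.5, with an exact counting interval from 7.14 to 234 (adjusted p = 0.00311, edgeR). Without the P11 Hu library, which held no Ep300 tag, the adjusted p was 0.0505 by the same test. Both FMRP libraries lay above both Hu libraries for Crebbp and for Ep300.

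Trrap and Ep400 encode partners in acetyltransferase complexes. Trrap, a scaffold with a kinase-like domain that lacks kinase activity, had 42 and 49 tags in the P11 and P13 FMRP libraries, against none in either Hu library, so that it was at least 39.7-fold higher in FMRP when Hu was put at 3 tags over the group (adjusted p = 0.00250, edgeR). Ep400, an ATP-dependent remodeller in the TRRAP-containing NuA4-type complex, had 21 and 32 tags in FMRP and 1 and 4 in Hu. Its log2 of FMRP over Hu was 3.75 (SE 0.78, adjusted p = 0.00464, edgeR), and the adjusted p was 0.0668 without the P11 Hu library. Trrap was the only one of the 8 without a Hu tag on its transcript.

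Ncor1, the nuclear receptor corepressor that brings histone deacetylase activity to genes, had 27 and 43 tags in the P11 and P13 FMRP libraries, against 4 and 1 in the P11 and P13 Hu libraries. The log2 was 3.98 (SE 0.90, adjusted p = 0.00614, edgeR). Of the Hu libraries the smaller one, P11, held more of these tags, and both lay below both FMRP libraries.

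Among the methyltransferase genes, Mll2 had 32 and 78 tags in the P11 and P13 FMRP libraries, against 3 and 2 in the P11 and P13 Hu libraries, with a log2 of 4.65 (SE 0.82, adjusted p = 0.00250, edgeR). Mll3 had 46 and 39 tags in FMRP and 0 and 5 in Hu, with a log2 of 4.53 (SE 0.93, adjusted p = 0.00426). Both encode enzymes that add methyl groups to histone H3 at enhancers. Mll1, the founding member of the family and best known from rearrangements in leukaemia, had 18 and 21 tags in FMRP and 5 and 8 in Hu. Its log2 of 1.94 (SE 0.67) was the smallest of the 8 and its adjusted p of 0.0327 the largest by edgeR. Mll1 did not pass without the filter on low counts (log2 1.75, adjusted p = 0.292) or without the P11 Hu library (log2 1.81, SE 1.22, adjusted p = 0.235), by the same test.

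Leaving out 1 of the 4 libraries moved these values. A fit with 1 Hu library left takes its spread from the FMRP pair alone and assumes that the lone library varies likewise. The log2 of Ncor1 was 5.45 without the P11 Hu library and 3.36 without the P13 Hu library, and that of Ep400 was 3.21 and 4.83 without the same libraries. For Mll2 it was at most 5.41, without the P11 FMRP library, and for Mll1 at most 2.60, without the P13 FMRP library. Mll3 had a log2 of 5.35 without the P13 FMRP library and 3.60 without the P11 Hu library. All Hu transcript tags of Crebbp, Ep300 and Mll3 came from the P13 library, so without it these genes, like Trrap, were at 0 in Hu.

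Marker genes of other cells moved with the protein precipitated. The 5 oligodendrocyte markers summed to 149 and 2314 CPM in the P11 and P13 FMRP Illumina libraries, against 5063 and 11616 CPM in the P11 and P13 Hu libraries. The 5 astrocyte markers summed to 1791 and 1157 CPM in FMRP and 77.3 and 241 CPM in Hu, with Gfap, Aqp4 and Slc1a2 at 0 in Hu. Aldoc had 5 and 8 tags in FMRP and 0 and 6 in Hu. Slc1a3 went the other way, with 0 and 3 tags in FMRP and 2 and 6 in Hu. The 6 neuronal markers summed to 1568 and 3222 CPM in FMRP and 7266 and 10231 CPM in Hu. FMRP and Hu libraries came from the same lysates, and the part of these markers in the result was not tested.

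The transcript lists do not hold every tag in these genes, so tags on the genome were counted within the gene bounds on the sense strand, both lines of Crebbp included. With genomic tags, 6 of the 9 genes were higher in FMRP (edgeR, adjusted over 998 genes), against 278 or 27.9% of all genes tested higher in FMRP and 269 or 27.0% higher in Hu. The 6 were Trrap, Ep300, Mll3, Ep400, Mll2 and Crebbp, and Ncor1, Mll1 and Mll5 did not pass. Trrap had 37 and 47 genomic tags in the P11 and P13 FMRP libraries, against 1 and 1 in the P11 and P13 Hu libraries, with a log2 of 5.43 (SE 0.90, adjusted p = 3.58e-05), the highest of the 9 on genomic tags.

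Ep300 had 17 and 25 genomic tags in FMRP and 0 and 3 in Hu, with a log2 of 3.95 (SE 0.85, adjusted p = 0.000437, edgeR). Mll3 had 40 and 30 in FMRP and 4 and 9 in Hu (log2 2.72, SE 0.71), and Ep400 had 16 and 29 in FMRP and 3 and 7 in Hu (log2 2.35, SE 0.71). In CPM of genomic tags both FMRP libraries lay above both Hu libraries for each of the 9 genes, as they did for 394 of 998 genes tested, or 39.5%. Without the P11 Hu library none of the 9 genes, and none of all the genes tested, passed on genomic tags by edgeR (732 genes had an unadjusted p under 0.05), and without the P13 Hu library 4 of the 9 did.

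The 2 ways of counting differed most for Crebbp. On genomic tags it had 40 and 54 in the P11 and P13 FMRP libraries, against 14 and 26 in the P11 and P13 Hu libraries, and its log2 was 1.44 (SE 0.58, adjusted p = 0.0354, edgeR), against a ratio of 137 on transcript tags. The first line of the gene held 38 and 54 of the FMRP tags and 4 and 3 of the Hu tags. Its second line, 2670 nt long and without a RefSeq accession in the table, held 2 and 0 of the FMRP tags and 10 and 23 of the Hu tags. Of the Hu tags, 31 fell within chr16:4083468-4084028, a stretch in which no FMRP library had a tag on this strand.

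Most Hu tags of Crebbp thus lay in the second line, and most FMRP tags in the first. None of the 33 Hu tags of the second line was on Crebbp's transcript list, and 6 of them were also placed on transcripts of other genes (among them Elovl6 and Tmem164). In the RefSeq annotation of GRCm38.p6 the next gene on that side of Crebbp is Trap1, on the same strand.

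**Figure D2:**
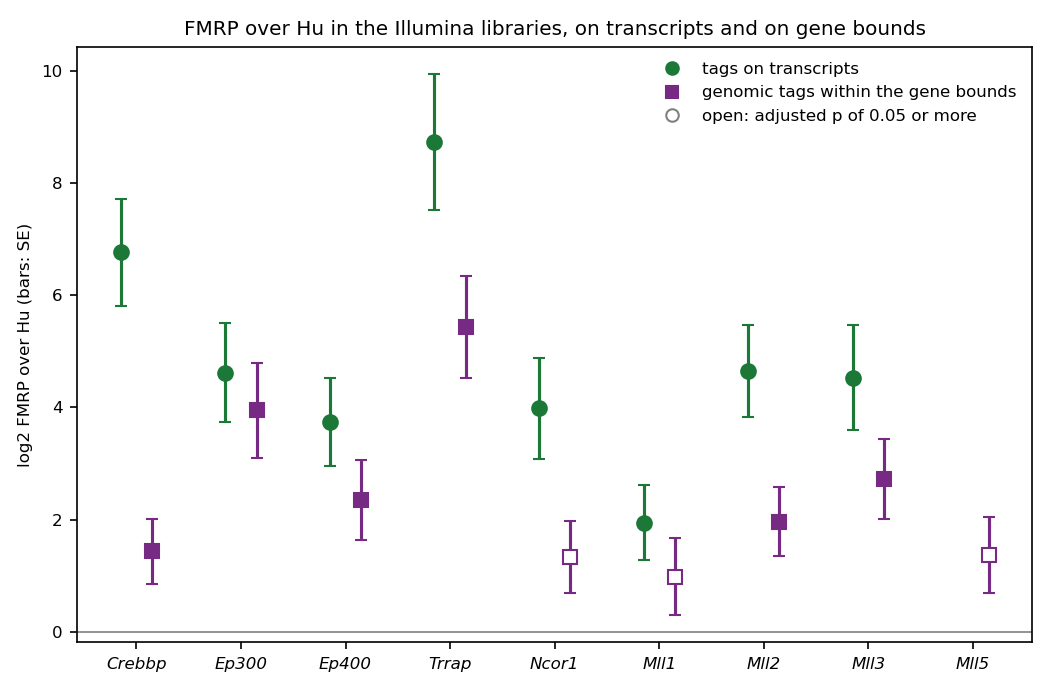
Log2 of FMRP over Hu with its SE for each gene in the 4 Illumina libraries, on transcript tags (circles) and on genomic tags within the gene bounds (squares), open where the adjusted p was 0.05 or more. Every value lies above 0, the squares lie below the circles, and the circle of Trrap is a fitted value for a gene with 0 Hu tags, which is no bound.

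The same contrast between the ends was seen in methyltransferase genes. In Mll2, 0 of 31 and 3 of 77 genomic tags of the P11 and P13 FMRP libraries lay in the last 2000 nt of the gene bounds, against 12 of 14 and 10 of 14 in the P11 and P13 Hu libraries. None of these 22 Hu tags was on the transcript list that stands for Mll2, and its log2 on genomic tags was 1.96 (SE 0.62, adjusted p = 0.00884, edgeR). In Mll5, 0 of 19 and 2 of 23 FMRP tags lay there, against 3 of 4 and 12 of 16 Hu tags. Mll5, an atypical family member with a SET domain but little known methyltransferase activity, had a log2 of 1.37 (SE 0.67, adjusted p = 0.0807, edgeR) on genomic tags.

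Mll1 showed the pattern in part. It had 14 and 19 genomic tags in the P11 and P13 FMRP libraries, of which 2 and 0 lay in the last 2000 nt, and 10 and 8 in the P11 and P13 Hu libraries, of which 6 and 3 lay there. Its log2 on genomic tags was 0.98 (SE 0.69, adjusted p = 0.227, edgeR), with a 95% interval of -0.37 to 2.33. In Mll3, 0 and 2 FMRP tags and 0 and 5 Hu tags lay in that window. Mll3 thus had such Hu tags in the P13 library only.

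Over the 9 genes together, 6.30% of 238 and 4.61% of 347 genomic tags lay in the last 2000 nt in the P11 and P13 FMRP Illumina libraries, against 40.3% of 62 and 33.7% of 101 in the P11 and P13 Hu libraries. The 5 FMRP 454 libraries ranged from 0% to 10.5%, on 19 to 68 tags each. For 7608 other genes the share was 14.2% and 21.1% for FMRP on Illumina and 44.2% and 51.1% for Hu. In this window Hu tags near the 3′ end were thus no rarer outside these genes. In the last 1000 nt the Hu share was 33.9% at P11 and 22.8% at P13, against 27.3% and 31.6% for other genes. In the last 3000 nt it was 54.8% and 58.4%, against 53.6% and 61.2%. No test was made, since the window was chosen after the tags had been seen.

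**Figure D3:**
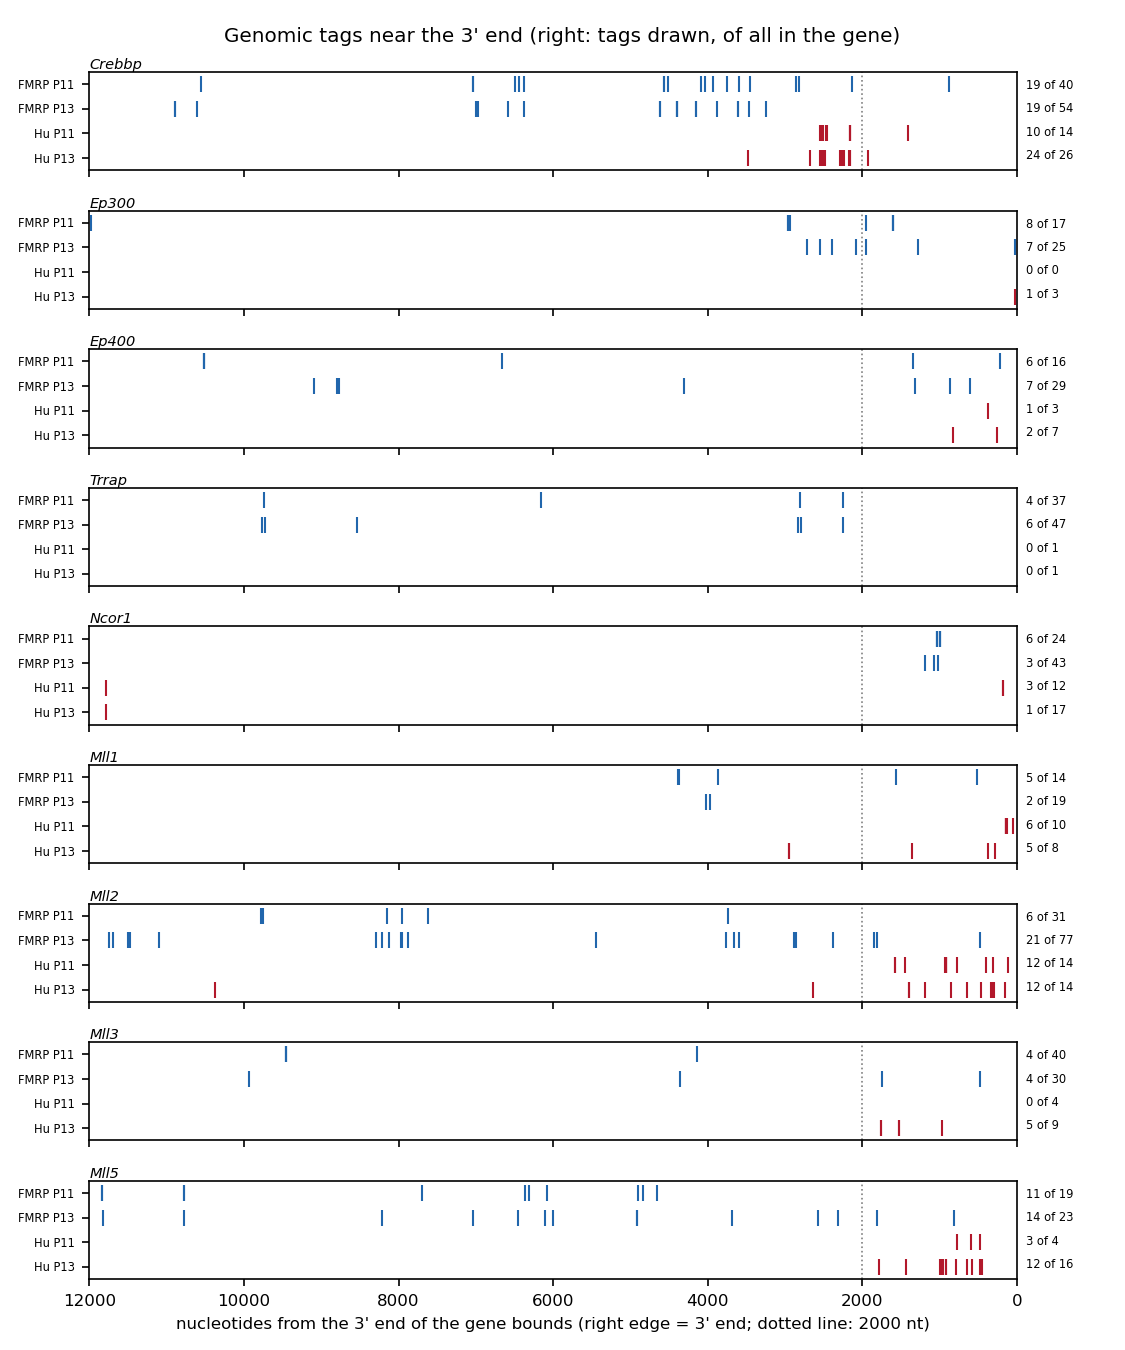
Genomic tags of the 4 Illumina libraries on the sense strand within 12000 nt of the 3′ end of each gene's bounds, 1 mark per tag, FMRP rows above Hu rows, with the number drawn of all tags in the gene at the right. Hu marks crowd to the right of the dotted line at 2000 nt in Mll2 and Mll5 and just left of it in Crebbp, while FMRP marks are spread out.

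**Figure D4:**
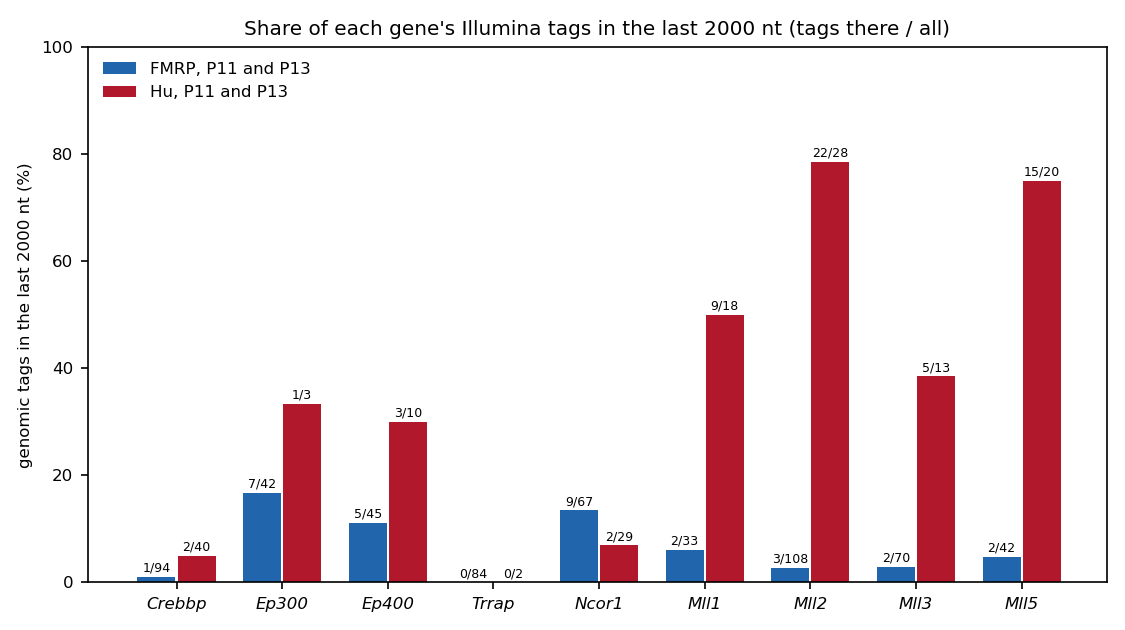
Percentage of each gene's genomic tags that lay in the last 2000 nt of the gene bounds, P11 and P13 libraries summed, FMRP left of Hu, with the tags there over all tags above each bar. The share was 2.78% in FMRP and 78.6% in Hu for Mll2, and 4.76% in FMRP and 75.0% in Hu for Mll5, while Trrap had none in either.

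Ncor1 and Mll5 each overlap a gene on the opposite strand in the RefSeq annotation of GRCm38.p6, Ttc19 and Srpk2. On genomic tags Ncor1 had 24 and 43 in the P11 and P13 FMRP libraries, against 12 and 17 in the P11 and P13 Hu libraries, with a log2 of 1.33 (SE 0.64, adjusted p = 0.0760, edgeR). Of the Hu tags, 25 of 29 were on no transcript, and 11, all from the P13 library, fell within chr11:62215511-62216903, where the P13 FMRP library had 2 tags and the other 7 libraries none. On the opposite strand Ncor1 had 0 and 2 tags in the FMRP libraries and 2 and 11 in the Hu libraries. No other of the 9 genes had more than 3 Hu tags on its opposite strand.

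Where FMRP tags lay along the mRNAs was described from the authors' counts in coding sequence, which exist for 7 of the 9. All 130 tags of Crebbp and all 118 of Trrap were coding, with Wilson intervals from 97.1% and 96.8% upward. Coding tags made up 97.6% of 84 for Mll3, 94.8% of 58 for Ep300, 91.4% of 58 for Ep400, 89.0% of 100 for Ncor1 and 79.2% of 48 for Mll1.

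The length in the table was itself 97.6% coding for Crebbp and 90.8% for Trrap, so that few other tags could be seen there. It was 74.5% coding for Mll3, 66.8% for Ep300, 74.9% for Ep400, 66.5% for Ncor1 and 72.4% for Mll1. The Wilson interval lay above that share for Trrap, Mll3, Ep300, Ep400 and Ncor1, and spanned it for Crebbp and Mll1 (65.7% to 88.3%). For the 8805 other genes with lengths, 77.0% of tags were coding, against 54.9% if tags were spread evenly.

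Library by library, 92.9% and 94.1% of these genes' tags were coding in the P11 and P13 Illumina libraries, against 81.5% and 69.6% for other genes. In the 454 libraries the genes' share was 85.7% to 100%, against 79.3% to 86.7% for other genes. It was higher than that of other genes in 6 of 7 libraries, the exception being the P14 monoclonal library with 12 of 14 tags coding. This comparison was not adjusted for coding length. The lengths of these genes were 66.5% to 97.6% coding, against 54.9% for other genes if tags were spread evenly. The lengths in the table are merged from all transcripts of a gene, and the coding share of the length carries that limit.

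**Figure D5:**
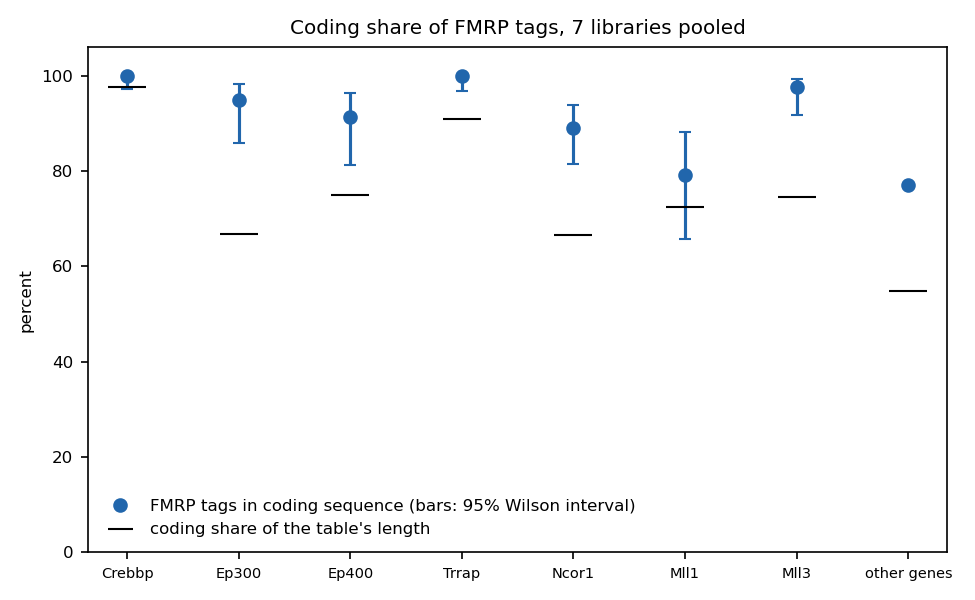
Percentage of FMRP tags in coding sequence for 7 mRNAs and for all other genes, 7 libraries pooled (points, with 95% Wilson intervals for the mRNAs), beside the coding percentage of the length in the authors' table (lines). Points lie above their lines, by least for Crebbp and Mll1.

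Tags were spread over many positions in each transcript. The 105 Crebbp tags of the FMRP Illumina libraries had 85 distinct middles, from 300 to 7407 nt, and no 100 nt window held more than 9 of them. Trrap's 91 tags had 78 middles, with at most 6 in a window, and Mll2's 110 tags had 103 middles, with at most 6.

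The densest FMRP window was in Ncor1, where 10 of 70 tags, or 14.3%, lay in the 100 nt from 7672 nt on. For Ep300 and Mll1 the densest window held 5 tags, which is 11.9% and 12.8% of their tags. Of the Hu tags on transcripts, 4 of 13 in Mll1 lay in 1 window beginning at 16301 nt, and the median position was 15366 nt for Hu, to be set beside 8052 nt for FMRP Illumina tags. Windows were not compared with a model of chance.

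Levels of the 7 mRNAs with a length were put on a common scale as CPM per kb of the table's length, over the 7 FMRP libraries. Crebbp had 160 ± 54.7 CPM per kb (SD, n = 7), which is place 151 of 8812 genes, on a length that holds few untranslated bases. Trrap followed with 92.3 ± 43.3 (place 396) and Ncor1 with 83.1 ± 37.6 (place 470). Trrap and Ncor1 did not differ beyond their spread, and the range of Crebbp over libraries (88.7 to 251) overlapped that of Trrap (28.2 to 170).

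Ep300 had 47.9 ± 28.0 CPM per kb (place 994), Ep400 40.6 ± 26.3 (place 1231), Mll3 30.9 ± 27.8 (place 1746) and Mll1 28.8 ± 12.6 (place 1868; SD, n = 7 each). Neighbours in this lower part of the order lay within each other's SD. The median over all 8812 genes was 10.2 CPM per kb, so each of the 7 stood above it. Exon array intensities deposited in the authors' table, from another measurement, ran in another order, from 137.9 for Ep400, above 55.6% of 19997 lines, to 1328 for Ncor1, above 96.9%, with Crebbp at 483.8 and Trrap at 498.

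Across the 7 FMRP libraries, in CPM of the authors' counts, Mll2 ranged from 812 through a median of 1216 to 1868 and had tags in every library. Crebbp ranged from 669 through 1194 to 1894 and Trrap from 359 through 1082 to 2155, also with tags in every library. Ep300, Ep400, Mll3 and Mll5 each had 0 tags in 1 library of 454 depth.

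At that depth a 0 allows 389 to 682 CPM of transcript tags, so that a lower level there was not detectable. Mll3 varied most for its mean (617 ± 555 CPM) and Mll2 least (1312 ± 425; SD, n = 7 each).

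Next, antibody, age and protocol were compared within FMRP on the authors' counts. Of the 9 genes, Mll2 alone had enough tags to enter the antibody and age tests on 454, in which 95 genes were tested and 0 (0.0%) were called in either. It had 13 and 5 tags in the P14 and P25 polyclonal libraries, against 5, 6 and 13 in the P14, P15 and P25 monoclonal libraries, and the log2 of polyclonal over monoclonal was 0.31 (95% interval -1.08 to 1.70, adjusted p = 0.988, edgeR). Its log2 of P25 over P14 and P15, with antibody as a term, was 0.06 (95% interval -1.25 to 1.37, adjusted p = 0.954, edgeR).

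Over all genes, 4 had an unadjusted p under 0.05 for antibody and 5 for age by edgeR, and DESeq2 called 0 in both. With no filter on low counts all 9 genes entered and none was called. Trrap then had a log2 of P25 over P14 and P15 of -1.42 (95% interval -2.65 to -0.18, adjusted p = 0.855, edgeR). It was among 61 of 6041 genes with an unadjusted p under 0.05 for age in that fit. On transcript tag lists its log2 for age was -1.72 (adjusted p = 0.487, edgeR). The intervals of Mll2 leave room for a difference of more than 2-fold either way.

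Protocol 2 on Illumina was set against Protocol 1 on 454 with the same antibody, a comparison in which platform, SDS and age cannot be told apart. Of 329 genes 13, or 3.95%, were called, and none of the 7 of these mRNAs that could be tested (Mll1 and Mll5 had too few tags). Crebbp had 1490 and 1194 CPM in the P11 and P13 Illumina libraries, against 1006 and 852 CPM in the P14 and P25 454 libraries, with a log2 of 0.69 (SE 0.55, adjusted p = 0.461, edgeR). The Illumina values lay above the 454 values but within the error of the test.

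The largest difference was in Mll3, with 39 and 30 tags in the Illumina libraries, against 8 and 1 in the 454 libraries (log2 0.84, SE 0.78, adjusted p = 0.543, edgeR). Trrap (log2 -0.16, SE 0.55) and Ep300 (log2 -0.05, SE 0.66) were nearest to 0, and Mll2 (0.30), Ncor1 (0.23) and Ep400 (0.55) lay between. For Trrap the 95% interval ran from -1.23 to 0.91.

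Other genes of the same pathways were looked up from 4 lists of 137 genes in all, of which 109 had a transcript tag and 14 passed the filter on low counts. Of these 14, 7 were higher in FMRP, 1 was higher in Hu and 6 did not pass, where 33.5% of all 1015 genes were higher in FMRP and 26.7% in Hu. Their median log2 was 1.88, against -0.16 for all 1015 genes. Neither of 2 tested genes of other acetyltransferases and their complexes passed. Of 4 tested deacetylase and corepressor genes, 1 was higher in FMRP and 1 higher in Hu. Of 7 tested methyltransferase and complex genes, 5 were higher in FMRP, as was the 1 demethylase gene tested.

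Tbl1xr1, a subunit of the complexes that Ncor1 forms, was higher in Hu, with 7 and 16 tags in the P11 and P13 FMRP libraries, against 31 and 67 in the P11 and P13 Hu libraries (log2 -1.70, SE 0.64, adjusted p = 0.0429, edgeR). Its direction was thus opposite to that of Ncor1.

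The histone H3 methyltransferase gene Nsd1 had 79 and 65 tags in the P11 and P13 FMRP libraries, against 19 and 19 in the P11 and P13 Hu libraries (log2 2.24, SE 0.63), and Ash1l, another, had 39 and 44 in FMRP and 2 and 10 in Hu (log2 3.25, SE 0.72). Hcfc1, a subunit of Mll1-type complexes, had 10 and 29 in FMRP and 3 and 5 in Hu (log2 2.57, SE 0.74). These 3 passed, with adjusted p from 0.00576 to 0.0163 (edgeR).

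Ncoa6, a subunit of the complexes of Mll2 and Mll3, had 16 and 21 tags in FMRP and none in Hu and was at least 16.1-fold higher in FMRP. Ehmt2, which encodes the methyltransferase G9a, had 8 and 14 tags in FMRP and none in Hu (at least 9.59-fold higher), and Jmjd1c, of the JmjC demethylase family, had 10 and 17 in FMRP and none in Hu (at least 11.8-fold higher). Ncoa6, Ehmt2 and Jmjd1c entered the test through their FMRP libraries alone. On genomic tags the log2 of Jmjd1c was 1.30 (adjusted p = 0.0757, edgeR). On genomic tags over all lists, 15 genes were tested, with 6 higher in FMRP and 4 in Hu, where 27.9% of all 998 genes were higher in FMRP and 27.0% in Hu.

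The genes whose CPM over the 9 libraries ran most like the summed CPM of the 8 mRNAs were found among 272 genes with at least 100 transcript tags. They were Eef2, which encodes the translation elongation factor eEF2 (Pearson r 0.94), Fry (0.93), Tbc1d9b (0.91), the axonal kinesin gene Kif1a (0.91) and the chromatin remodeller gene Chd5 (0.90), against a median r of 0.16 over the 272. The 9 points share libraries, depth and the split between FMRP and Hu, and these values are a description.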

How the data were processed

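The 9 genes and the lists around them were chosen with earlier results of these data known. Tags were aligned with Novoalign to mm9, per the submitters' processing notes, with no version given. Each library has a deposited list of unique tags on the genome and one on RefSeq transcripts, and a line was counted as 1 tag. The value beside a tag holds deposited counts of merged reads on 454, going by the values, and a deposited score of no stated meaning on Illumina; neither was used. The authors' table gives whole-number counts per gene, over the transcript and over coding sequence, and an exon array intensity, deposited by the authors without its normalization. How the authors ranked genes and assigned tags to them is not given in the sources consulted. Genomic tags were counted for a gene when they overlapped its bounds in the authors' table, on the gene's strand.

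Transcript tags were summed to 11622 genes. Transcript tags of Mll2 were found under a predicted RefSeq model of gene 381022. Strand came from RefSeq promoters of GRCm38.p6 or, for 850 genes with at least 10 tags (Mll5 among them, 73 of 78 tags), from the strand with at least 80% of tags. FMRP over Hu was fitted on the 4 Illumina transcript tag lists with edgeR 4.0.16 in R 4.3.3 (TMM, filterByExpr, quasi-likelihood, Benjamini-Hochberg, 0.05, two-sided). Antibody, age and protocol used the authors' counts. The fits were tested on simulated data. DESeq2 1.42.0 and the other alternatives are in the closing section. Named genes outside the 9 were, per list, those past the threshold, at most 6 by FMRP tags, and the 5 most like the 9. 1 gene that this rule selects is not reported here. The P11 and P13 lysates were each divided between FMRP and Hu, per the series text, so same-aged libraries are pairs (correlation of deviations 0.13). Tables used Python 3.11.15, pandas 2.3.3, scipy 1.17.1 and matplotlib 3.10.9.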

Additional observations from a re-analysis of the deposited data

Results flagged for a closer look

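Results here rest on tags that the transcript comparison leaves out. In the second line of Crebbp, beyond the 3′ end of the first, the P11 Hu library had 10 tags and the P13 Hu library 23, with 2 and 0 in the P11 and P13 FMRP Illumina libraries. In Mll2, 22 Hu genomic tags lay in the last 2000 nt and on no transcript list of that gene, with 3 FMRP Illumina tags in that window. Mll5, which has no transcript tags, had 42 FMRP Illumina genomic tags and 20 Hu genomic tags. In Ncor1, 11 Hu tags lay in 1 stretch off its transcript, all from the P13 library, and 13 Hu tags lay on the opposite strand.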

How the results depend on the processing

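With the lysate as a block, which pairs the libraries, 331 genes were called higher in FMRP and 273 in Hu, and all 8 mRNAs tested stayed past the threshold; blocking by age in the antibody comparison left 0 genes called. On transcript tags, leaving out 1 library gave 214 to 429 genes higher in FMRP, 77 to 205 higher in Hu and 5 to 8 of the 8 mRNAs higher in FMRP; the lowest for FMRP (214, with 109 higher in Hu) came without the P11 Hu library. Genes higher in Hu numbered 155 with no filter on low counts and 128 with DESeq2, against 271; the cause was not tested. On genomic tags, without the P11 Hu library 0 genes were called higher in FMRP, 0 in Hu and 0 of the 9 passed, and without the P13 Hu library 212 were called higher in FMRP, 88 in Hu and 4 of the 9 passed. Both settings and the windows below were chosen after seeing the data. Genes called for protocol numbered 13, against 27 with DESeq2 size factors, 28 with no filter, 0 with DESeq2 (39 with an unadjusted p under 0.05), 20 on transcript tag lists and 0 to 27 without 1 library; none was one of the 9 genes. Coding shares were 100% for Ep400, Ncor1 and Mll3 in Protocol 1 libraries alone and 94.7% for Ncor1 as a mean over libraries; without 1 library they ran from 95.6% to 100% for Mll3, 87.2% to 93.4% for Ncor1 and 72.4% to 85.3% for Mll1. The share in the last 1000 nt was 1.88% in FMRP Illumina and 27.0% in Hu, and in the last 3000 nt 8.72% in FMRP Illumina and 57.1% in Hu, against 5.30% in FMRP Illumina and 36.2% in Hu in the last 2000 nt (4.61% to 6.30% in FMRP Illumina and 33.7% to 40.3% in Hu without 1 library). Depth limits the 454 libraries most, where single tags decide a gene's value.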
